A study of Mus musculus with 6 samples.

Results

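The genes described here are 43 genes of DNA replication and S phase, chosen by name as the parts of the replication machinery, the enzymes that supply deoxynucleotides and a few regulators of entry into S phase. All 43 were among the 16583 genes of the expression table, and all passed the filter on low counts that left 11656 genes for testing. They were measured by RNA sequencing in MC38 cells, a mouse colorectal cancer line, in 3 samples with SRC-1 knocked out and 3 control samples. SRC-1 is a nuclear receptor coactivator encoded by Ncoa1, and it binds hormone receptors and other transcription factors. Interferon gamma (100 ng per mL, 24 hours) was given to all 6 samples, controls included, so every value describes stimulated cells. The sources used here do not say whether the knockout cells were 1 clone or a pool. They also do not say whether replicates were separate cultures. The p-values therefore reflect sample-to-sample spread that may be technical.

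Before a cell divides it copies its genome once. In G1 phase the origin recognition complex (ORC), with Cdc6 and Cdt1, loads the ring-shaped MCM helicase onto DNA. In S phase Cdc45 and the GINS complex join that ring to open the helix, and primase and the polymerases copy both strands with the sliding clamp PCNA. Many of these genes are known targets of E2F transcription factors, which the retinoblastoma protein restrains until cyclin-dependent kinases release them. Tumour cell lines in culture keep the programme active, and interferon gamma is known to slow the cycle in many cell types.

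Libraries held 16329459 to 17207625 expected counts. Ncoa1 itself stood at 16.7, 10.1 and 16.1 CPM (counts scaled to library size by TMM) in the libraries labelled knockout and at 18.25, 18.47 and 18.05 CPM in controls. It was not called (log2 fold change -0.35, edgeR adjusted p = 0.179), which leaves the labels unchecked by this gene, and "knockout" refers to the label. The genotype labels of knockouts 2 and 3 read KOSRC-2 and KOSRC-3, against KOSRC-1 in all 3 titles, and the titles were followed. Knockout 2 stood apart: its correlation across genes was 0.978 with knockout 1 and 0.981 with knockout 3, against 0.996 between knockouts 1 and 3 and 0.994 to 0.995 among controls. Of 10 colon epithelial markers listed in the table, each averaged under 1 CPM in both groups, and their summed level was 1.64 to 1.70 CPM in knockouts and 1.63 to 2.37 CPM in controls, so the labelled epithelial origin was not visible in them. Vim, a mesenchymal intermediate filament gene, averaged 2945 CPM in knockouts and 2465 CPM in controls. The summed level of 10 immune cell markers was 4.55 to 6.90 CPM in knockouts and 10.9 to 12.7 CPM in controls, mostly from the macrophage marker Cd68 (4.44 CPM in knockouts and 10.3 CPM in controls on average). The 4 endothelial markers summed to 0.182 to 0.598 CPM in knockouts and 0.534 to 0.651 CPM in controls. The 9 fibroblast and stromal markers summed to 5623 to 5687 CPM in knockouts and 4068 to 4332 CPM in controls, with Col1a1 and Col1a2 under 1 CPM. The sum does not describe each marker. Of the 6 that were tested, 1 was higher and 3 were lower in the knockout at an edgeR adjusted p under 0.05. Their median log2 fold change was -0.89. Whether these marker levels bear on the replication genes was not tested.

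The replication genes moved both ways and mostly by small amounts. By edgeR's quasi-likelihood test, with a gene called at an adjusted p under 0.05 over all genes tested, 11 of 43 were higher in the knockout, 5 were lower and 27 were not called. That is 37.2% of the genes called, against a background of 35.7% of all genes tested. By direction, 25.6% of them were higher, against 17.1% of all genes, and 11.6% were lower, against 18.5%. The share called is therefore close to that of any gene, and nothing is read from it about replication genes as a group. In these bulk samples, a different share of cells in S phase and a different amount of RNA per cell cannot be told apart. Their median log2 fold change was 0.07, against 0.02 for all genes, and single genes ran from -0.55 (Cdt1) to 1.23 (Fen1). Fen1 was the only one of the 43 to change by more than 1 on the log2 scale. The knockout and control libraries did not overlap for 20 of the 43 (46.5%), against 51.4% of all genes, with 13 higher and 7 lower in the knockout.

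**Figure D1:**
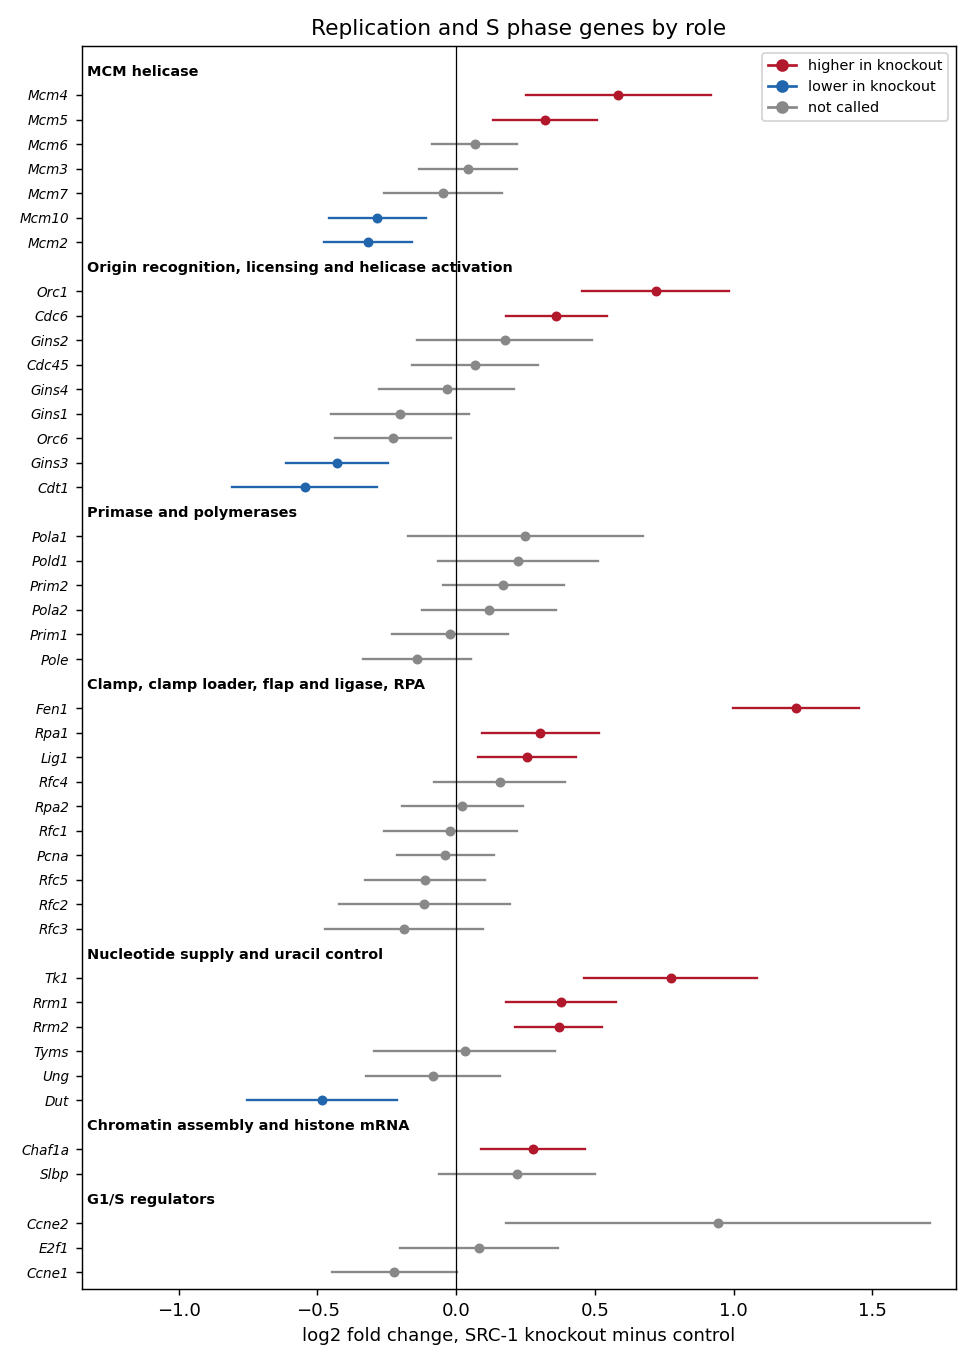
The 43 genes ordered by role, with the log2 fold change (knockout minus control) on the horizontal axis; points are edgeR estimates, lines are 95% intervals, and colours mark the call. Each of the larger roles except the polymerases holds genes called in the knockout, and Fen1, at 1.23, lies farthest to the right.

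Promoters were available for 35 of the 43 genes (39 start sites) in RefSeq's annotation of GRCm38.p6, each window running from 250 bases before the start to 50 after it. The windows were searched on both strands for the E2F words TTTCCCGC, TTTCGCGC, TTTGCCGC and TTTGGCGC. Of the 39 windows, 12 (30.8%) held at least 1 word, against 2.27% of all 32851 promoters of the same length and 4.04% of the 11959 promoters of tested genes. The words were found in 4 of 13 windows of genes called higher, in 2 of 5 of genes called lower and in 6 of 21 of genes not called. The CCAAT box (CCAAT) was in 22 of the 39 windows (56.4%), against 39.0% of promoters of tested genes. The GC box (GGGCGG), which can share bases with an E2F word, was in 29 of them (74.4%), against 62.5%. A match describes letters only and is not a binding site. Shown next are the promoters of the 2 genes called higher and the 2 called lower with the smallest p, because they moved in opposite directions. They lie at chr19:10204344-10204643 (minus strand, Fen1), chr4:108579204-108579503 (plus strand, Orc1), chr8:95633309-95633608 (plus strand, Gins3) and chr8:122567765-122568064 (plus strand, Cdt1). Each is written 5′ to 3′ along its gene, with E2F words in capitals on either strand.
Fen1: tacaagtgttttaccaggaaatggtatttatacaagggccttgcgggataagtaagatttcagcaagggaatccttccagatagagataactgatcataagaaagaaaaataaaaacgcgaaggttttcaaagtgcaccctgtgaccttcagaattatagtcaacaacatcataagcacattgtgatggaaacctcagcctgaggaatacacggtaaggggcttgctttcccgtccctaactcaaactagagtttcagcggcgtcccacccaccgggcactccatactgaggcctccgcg
Orc1: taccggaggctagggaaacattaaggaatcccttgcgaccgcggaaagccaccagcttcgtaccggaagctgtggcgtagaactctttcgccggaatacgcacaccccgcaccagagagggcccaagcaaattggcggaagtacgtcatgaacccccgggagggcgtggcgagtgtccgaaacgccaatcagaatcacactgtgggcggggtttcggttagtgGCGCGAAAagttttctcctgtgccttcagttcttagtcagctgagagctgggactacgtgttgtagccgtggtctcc
Gins3: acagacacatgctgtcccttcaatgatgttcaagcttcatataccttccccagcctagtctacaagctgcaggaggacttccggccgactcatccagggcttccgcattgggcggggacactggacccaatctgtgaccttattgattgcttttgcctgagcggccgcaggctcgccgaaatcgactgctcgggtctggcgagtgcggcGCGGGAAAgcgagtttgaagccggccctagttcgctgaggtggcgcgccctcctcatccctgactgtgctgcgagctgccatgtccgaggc
Cdt1: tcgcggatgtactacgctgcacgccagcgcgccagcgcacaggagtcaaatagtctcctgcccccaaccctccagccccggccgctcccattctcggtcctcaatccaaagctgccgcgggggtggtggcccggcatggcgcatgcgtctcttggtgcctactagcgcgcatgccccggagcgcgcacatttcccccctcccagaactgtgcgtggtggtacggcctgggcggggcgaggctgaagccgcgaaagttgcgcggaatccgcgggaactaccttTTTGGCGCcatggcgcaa
Orc1, which was higher, and Gins3 and Cdt1, which were lower, each held 1 E2F word in this window. Fen1 held none, and its second annotated start held none either.

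Subunits of the MCM helicase split. Mcm2 to Mcm7 encode the 6 subunits of the ring that unwinds DNA, and each ring holds 1 copy of each. Mcm4 had 178, 124 and 176 CPM in knockouts 1, 2 and 3, against 109, 103 and 107 CPM in controls (log2 fold change 0.58, SE 0.141, adjusted p = 0.0173). All 3 knockouts lay above all controls, with knockout 2 nearest to them. Mcm5 had 143, 164 and 143 CPM in knockouts, against 122, 119 and 119.8 CPM in controls (0.32, SE 0.0798, adjusted p = 0.0187). Mcm2 went the other way, at 184, 168 and 175 CPM in knockouts and 214, 222 and 221 CPM in controls (-0.32, SE 0.0683, adjusted p = 0.0103). Every knockout lay below every control for Mcm2.

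The other 3 ring subunits overlapped between the groups and were not called. Mcm3 had 266, 297 and 259.9 CPM in knockouts and 265, 268 and 266 CPM in controls, and Mcm6 had 266, 254 and 268 CPM against 254, 253 and 246 CPM. Mcm7 had 209, 249.6 and 213 CPM in knockouts and 242, 231 and 221 CPM in controls. Its gene overlaps Cops6 and Ap4m1 on the other strand, and the counts are not stated to use strand. The 95% intervals were -0.14 to 0.22 for Mcm3, -0.09 to 0.22 for Mcm6 and -0.26 to 0.16 for Mcm7 on the log2 scale. Without knockout 2, Mcm7 was called lower (-0.13, edgeR adjusted p = 0.0151), where 69.6% of all genes were called. Mcm10 is not a ring subunit but helps to activate the ring, and it fell to 70.04, 73.8 and 78.3 CPM in knockouts, against 90.3, 92.3 and 88.0 CPM in controls (-0.28, SE 0.0750, adjusted p = 0.0229).

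Mcm4 lies on chromosome 16 (15623897 to 15637400 in GRCm38.p6), where the median of 352 other tested genes was 0.24 higher in the knockout. Of the other members on that chromosome, Cdc45 and Rfc4 were at 0.07 and 0.16 and were not called. Mcm2 lies on chromosome 6 (88883474 to 88898780), where the median of 535 other genes was -0.16. The part of these chromosome-wide shifts in either change was not tested. The Mcm4 and Mcm5 calls did not survive removal of any single control (edgeR adjusted p up to 0.0745 and 0.0885), the Mcm4 call also without knockout 1 or 3, and the Mcm2 call without control 2 or 3. The Mcm2 and Mcm4 calls were also lost in limma on log2(TPM + 1). The Mcm10 call was lost without any single control (edgeR adjusted p up to 0.104), without knockout 1 (0.0777) and in limma on log2(TPM + 1) (0.191). Of the 7 genes of this role, 4 were called with all libraries, where 35.7% of all genes were called. Without control 2 or without control 3 the count was 0, where 20.4% of all genes were called in each case.

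Per length, in TPM (length-scaled transcript abundance, as deposited), Mcm2 made up 13.2%, 11.7% and 12.7% of the summed ring mRNA in knockouts, against 15.6%, 16.3% and 16.5% in controls. The means were 12.5% ± 0.746 and 16.1% ± 0.462 (SD, n = 3 each; exact permutation p = 0.1, two-sided, the smallest that 3 against 3 allows). Mcm4 took 12.0%, 8.07% and 11.9% in knockouts and 7.40%, 7.09% and 7.45% in controls. Mcm5 took 10.1%, 11.2% and 10.1% in knockouts and 8.66%, 8.55% and 8.74% in controls. For these 3 subunits the groups did not overlap, and for Mcm3, Mcm6 and Mcm7 they did. The summed level was 684, 544 and 663 TPM in knockouts, against 596, 572 and 587 TPM in controls, and the groups overlapped. In CPM the sum was 1246, 1257 and 1235 in knockouts and 1206, 1195 and 1180 in controls, and the groups did not overlap (exact permutation p = 0.1). In controls the most abundant of the 6 per length was Mcm7 (143 TPM) and the least Mcm4 (42.8 TPM), and in knockouts the means were 144 TPM for Mcm7, 68.2 TPM for Mcm4 and 65.5 TPM for Mcm5.

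**Figure D2:**
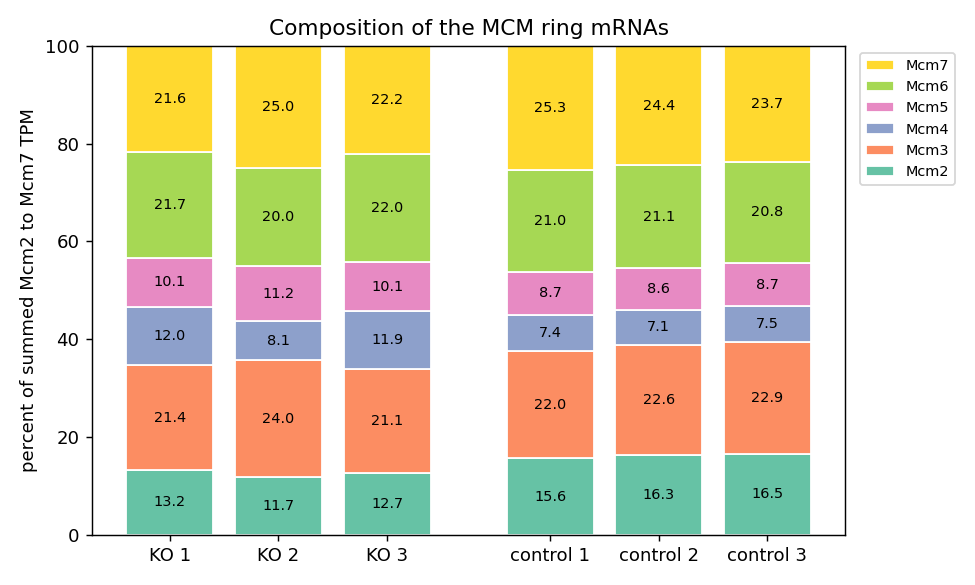
Share of each subunit in the summed Mcm2 to Mcm7 TPM (vertical axis, percent), with 1 bar per library, knockouts left and controls right. The Mcm2 share is 11.7% to 13.2% in knockouts and 15.6% to 16.5% in controls, and the Mcm4 share is 8.07% to 12.0% in knockouts and 7.09% to 7.45% in controls.

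Origin licensing and helicase activation held both higher and lower genes. Of its 9 genes, 2 were higher and 2 lower (44.4% called, against 35.7% of all genes). Orc1, the largest ORC subunit, had 27.2, 25.9 and 28.0 CPM in knockouts, against 18.6, 14.3 and 16.3 CPM in controls. It rose 1.65-fold (log2 fold change 0.72, SE 0.113, adjusted p = 0.00295). Cdc6, the loading factor that joins ORC, had 48.9, 52.3 and 51.9 CPM in knockouts and 40.2, 41.0 and 37.9 CPM in controls (0.36, SE 0.0775, adjusted p = 0.0103), a call lost without control 1 or 3. Cdt1, which brings the MCM ring to ORC, fell 1.46-fold to 76.1, 98.6 and 78.6 CPM in knockouts, against 119, 128 and 123 CPM in controls (-0.55, SE 0.111, adjusted p = 0.00885). Gmnn, which encodes geminin, the inhibitor of Cdt1, is not one of the 43, was chosen after its values were seen and averaged 32.9 ± 4.17 CPM in knockouts and 25.8 ± 0.164 CPM in controls (SD, n = 3 each; 0.35, edgeR adjusted p = 0.0375), a call lost without any single control or knockout 3. Orc1 and Cdc6 thus rose and Cdt1 fell, with no overlap between the groups in any of them. Orc1 overlaps an antisense transcript, Gm12743, whose reads cannot be told apart from its own. The same limit holds for Cdt1, which overlaps Gm20388 on the same strand by 5540 bases.

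Of the 4 GINS subunits, which form 1 complex, only Gins3 was called with all libraries, where 35.7% of all genes were called. It had 22.4, 22.0 and 21.5 CPM in knockouts, against 28.6, 29.7 and 30.5 CPM in controls (-0.43, SE 0.0784, adjusted p = 0.00546). Gins1, Gins2 and Gins4 ran from -0.20 to 0.17 on the log2 scale and overlapped between the groups, with 95% intervals that together span -0.45 to 0.49. The Gins3 difference was not tested against theirs. Cdc45, the partner of GINS in the active helicase, was at 97.8, 114 and 94.2 CPM in knockouts and 93.7, 104 and 94.3 CPM in controls and was not called (interval -0.16 to 0.30). Orc6 was at 62.1, 73.5 and 62.5 CPM in knockouts and 75.6, 77.3 and 79.0 CPM in controls. These groups did not overlap, but the difference was not called (-0.23, adjusted p = 0.0861). Without knockout 2, Gins1 (-0.27, edgeR adjusted p = 0.00448) and Orc6 (-0.31, 1.12e-05) were called lower. Orc6 was also called lower in limma on log2(FPKM + 1). Without knockout 2 the 9 genes of this role gave 2 higher and 4 lower, where 34.6% of all genes were higher and 35.0% lower.

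The remaining ORC subunits come from a list of 43 other replication genes, and Orc3, Orc4 and Orc5 were singled out after their values were seen. Orc2 had 28.7, 28.3 and 30.9 CPM in knockouts, against 55.2, 59.6 and 60.7 CPM in controls (-0.997, SE 0.0827, adjusted p = 0.000234). Orc4 fell to 56.6, 57.4 and 55.5 CPM in knockouts, against 85.0, 81.9 and 86.5 CPM in controls (-0.58, adjusted p = 0.000941) and Orc5 fell 1.71-fold (-0.77, adjusted p = 0.00059). Orc3, at 79.7, 76.0 and 79.6 CPM in knockouts and 84.7, 87.2 and 83.9 CPM in controls, was not called (-0.12, adjusted p = 0.209), and its sign turned in limma on log2(TPM + 1) (0.03). Of the 6 subunits of ORC, 1 rose, 3 fell and 2 were not called, where 35.7% of all genes were called. Nothing is read from this count, as Orc3, Orc4 and Orc5 were singled out after their values were seen. The 4 calls held in all 15 alternatives, and no test of the difference between subunits was made. Per length, Orc1 averaged 12.9 TPM in knockouts and 7.36 TPM in controls, while Orc2 averaged 12.8 TPM in knockouts and 25.4 TPM in controls.

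**Figure D3:**
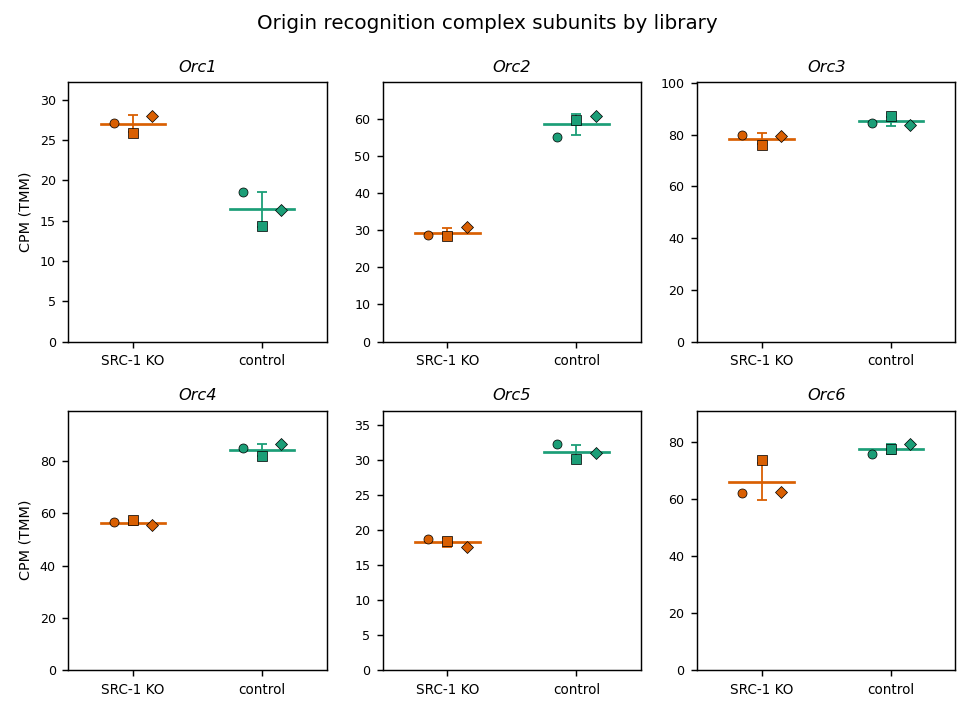
CPM of the 6 ORC subunits (vertical axes from 0), knockouts left and controls right; circles, squares and diamonds are replicates 1, 2 and 3, and bars are means with SD. Orc1 is higher in every knockout (25.9 to 28.0 CPM) than in any control, and Orc2, at 28.3 to 30.9 CPM in knockouts and 55.2 to 60.7 CPM in controls, is lower, as are Orc4 and Orc5.

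No primase or polymerase gene was called (0 of 6 at an adjusted p under 0.05 by edgeR, against 35.7% of all genes). At an unadjusted p under 0.05 the count was also 0, and DESeq2 called 0. Other settings made single calls. With length and GC trends removed, Pola2 was called higher (0.16, adjusted p = 0.0279) and Pole lower (-0.18, adjusted p = 0.0178), and limma on log2(TPM + 1) called Pold1 higher (0.25, adjusted p = 0.0394). Pold1, the catalytic subunit of polymerase delta, had the smallest p, at 81.2, 107 and 81.0 CPM in knockouts and 78.5, 79.0 and 73.0 CPM in controls (0.22, adjusted p = 0.194). Every knockout lay above every control, by a wide margin in knockout 2 alone. Prim2, a primase subunit, also did not overlap, with 40.9, 47.6 and 40.2 CPM in knockouts and 37.1, 37.9 and 39.4 CPM in controls (0.17, adjusted p = 0.195). Pole, the catalytic subunit of polymerase epsilon, was below every control in all 3 knockouts (88.6, 76.7 and 86.7 CPM, against 93.0, 89.4 and 95.4 CPM) and was not called with the trends kept (-0.14, adjusted p = 0.224). Pola1 and Pola2, the catalytic and accessory subunits of polymerase alpha, and Prim1, the catalytic primase subunit, overlapped between groups. Pola1 had 58.4, 34.8 and 52.5 CPM in knockouts and 40.8, 40.6 and 41.2 CPM in controls, so that knockout 2 lay below the controls and the other knockouts above them. Without knockout 2 it was called higher (0.44, adjusted p = 4.82e-07).

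Among the clamp, its loader and the enzymes that finish lagging strand fragments, 3 of 10 rose and 0 fell by edgeR. Over all genes, 17.1% were higher and 18.5% lower. The count of lower genes was also 0 at an unadjusted p under 0.05 and by DESeq2. Without knockout 2 the counts were 3 higher and 3 lower, where 34.6% of all genes were higher and 35.0% lower. Fen1 encodes the flap endonuclease that trims the RNA-primed ends of Okazaki fragments. It had 112, 122 and 112 CPM in knockouts, against 54.3, 44.2 and 49.1 CPM in controls, and rose 2.34-fold (adjusted p = 0.000195; log2 fold change 1.23 with SE 0.0967 and a 95% interval of 0.999 to 1.45). The lowest knockout was above the highest control by a wide margin, and the call held in all 15 alternatives, at 1.152 to 1.298. Its locus, on chromosome 19 (10199132 to 10204393), overlaps Tmem258 by 156 bases and an antisense gene, Gm10143, by 3253 bases on the other strand. Tmem258 averaged 34.0 CPM in knockouts and 27.4 CPM in controls (0.31, adjusted p = 0.215). Reads of the antisense gene cannot be told apart from those of Fen1.

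Lig1, the ligase that then seals the fragments, had 109, 112 and 99.97 CPM in knockouts and 91.6, 89.8 and 87.9 CPM in controls (0.25, SE 0.0754, adjusted p = 0.0352). Rpa1, the large subunit of the protein that coats single strands, had 151, 128 and 156 CPM in knockouts and 116, 117 and 119 CPM in controls (0.30, SE 0.0894, adjusted p = 0.035). Neither gene overlapped between the groups, but neither call survived removal of a single control (edgeR adjusted p up to 0.146 for Lig1 and 0.127 for Rpa1). Lig1 was also lost without knockout 1, and Rpa1 without knockout 1 or 3. Both calls were lost in limma on log2(TPM + 1). The Lig1 call was also lost with no filter on low counts and with the replicate number as a block, and the Rpa1 call in limma on log2(FPKM + 1). Pcna, the clamp and the most abundant of the 43 per length (346 TPM in knockouts and 339 TPM in controls), was not called. It had 236, 246 and 258 CPM in knockouts and 267, 251.1 and 243 CPM in controls (-0.04, interval -0.21 to 0.13). The 5 subunits of the clamp loader, Rfc1 to Rfc5, and Rpa2 overlapped between groups and lay between -0.19 and 0.16. Without knockout 2, Rfc2 (-0.27, edgeR adjusted p = 0.000281), Rfc3 (-0.31, 0.00029) and Rfc5 (-0.18, 0.0146) were called lower, and with length and GC trends removed Rfc4 was called higher (0.25, 0.026).

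Of the 6 genes of nucleotide supply, 3 rose and 1 fell (66.7% called, against 35.7% of all genes). Without control 2, control 3 or knockout 3 the count was 2 higher and 0 lower, where 20.4%, 20.4% and 24.2% of all genes were called. Tk1, the thymidine kinase of the salvage pathway, had 81.8, 108 and 82.4 CPM in knockouts, against 58.1, 52.4 and 48.9 CPM in controls, and rose 1.71-fold (0.77, SE 0.133, adjusted p = 0.0044). On the other strand it overlaps Afmid by 169 bases and Gm20708 by 10567 bases. Afmid was lower in the knockout (-0.46). Gm20708 was not among the genes tested, and its reads cannot be told apart from those of Tk1. Both subunits of ribonucleotide reductase, which makes deoxynucleotides, rose by similar amounts. Rrm1 had 339.6, 290.3 and 334 CPM in knockouts and 258, 243 and 242 CPM in controls (0.38, SE 0.0847, adjusted p = 0.0126). Rrm2 had 383, 372 and 364 CPM in knockouts and 299, 283 and 285 CPM in controls (0.37, SE 0.0675, adjusted p = 0.00546). The Rrm2 and Tk1 calls held in every alternative. That of Rrm1 was lost without control 2, control 3 or knockout 3 and in limma on log2(TPM + 1).

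Dut, the dUTPase that keeps uracil out of DNA, fell 1.40-fold to 82.3, 107 and 82.6 CPM in knockouts, against 130.2, 126 and 123 CPM in controls (-0.48, SE 0.114, adjusted p = 0.0158). This call was lost without any 1 control and without knockout 3 (adjusted p up to 0.0654). Ung, the glycosylase that removes uracil from DNA, was at 13.0, 15.8 and 13.8 CPM in knockouts and 15.4, 14.9 and 14.8 CPM in controls and was not called. Tyms, thymidylate synthase, overlapped as well (25.9, 34.0 and 23.9 CPM in knockouts, against 26.4, 28.4 and 27.2 CPM in controls). Its interval, -0.29 to 0.36, leaves changes of either sign possible.

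Chaf1a, the large subunit of the chromatin assembly factor that places histones behind the fork, had 88.0, 100.4 and 90.5 CPM in knockouts, against 79.1, 76.7 and 74.4 CPM in controls (0.28, SE 0.0802, adjusted p = 0.0326). The groups did not overlap, and the call needed every control and knockout 3. Its gene overlaps Ubxn6 on the other strand, which averaged 43.6 CPM in both groups. Slbp, which binds the stem-loop of histone mRNAs, was at 43.01, 34.2 and 44.2 CPM in knockouts and 36.3, 36.0 and 32.1 CPM in controls and was not called. Without knockout 2, Slbp was called higher (0.33, edgeR adjusted p = 0.000103). None of the 3 regulators of S phase entry was called at an adjusted p under 0.05 by edgeR, against 35.7% of all genes. E2f1 was at 68.4, 87.5 and 67.8 CPM in knockouts and 67.1, 76.7 and 67.6 CPM in controls, and Ccne1 (cyclin E1) was at 59.2, 70.5 and 63.9 CPM against 69.96, 80.5 and 75.4 CPM. At an unadjusted p under 0.05 the count was 1, that of Ccne2, and DESeq2 called 1, the same gene. Without knockout 2, Ccne1 was called lower (-0.29, edgeR adjusted p = 0.000142) and Ccne2 higher, where 69.6% of all genes were called.

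**Figure D4:**
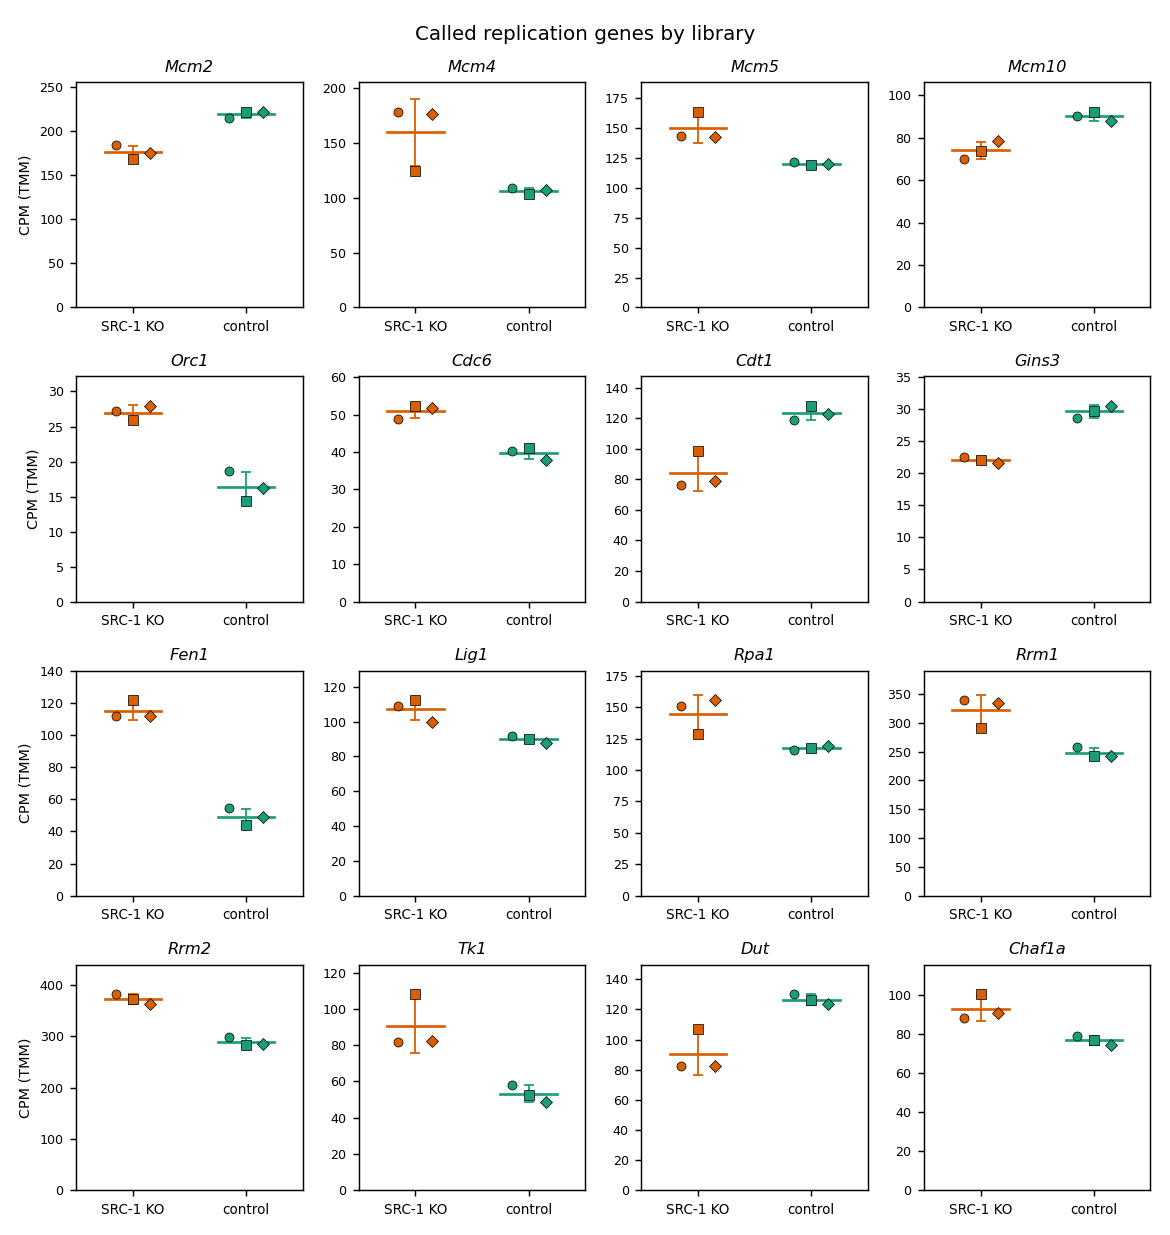
CPM (vertical axes from 0) of the 16 called genes, knockouts left and controls right; circles, squares and diamonds are replicates 1, 2 and 3, and bars are means with SD. In all 16 the groups do not overlap, and in Mcm4, Tk1, Dut and Cdt1 knockout 2 (square) lies away from the other 2 knockouts.

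Ccne2, which encodes cyclin E2, a partner of Cdk2, depended on knockout 2. It had 26.6, 11.02 and 26.9 CPM in knockouts 1, 2 and 3, against 12.2, 9.59 and 11.8 CPM in controls. Knockouts 1 and 3 were above every control and knockout 2 lay among them (0.94, SE 0.325, adjusted p = 0.0592). Without knockout 2 the gene was called higher (1.26, adjusted p = 3.51e-12).

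The same library stood apart in most of the 43, as it did in most of all genes tested. Knockout 2 lay above both other knockouts in 28 of the 43 and below both in 11. Over all 11656 genes tested it lay above both in 5545 and below both in 5088. The median difference was 0.20 on the log2 scale for the 43, against 0.02 over all genes tested. The difference ran from -1.27 (Ccne2) to 0.45 (Tyms). Across the 43 genes it went with the GC content of their transcripts (Pearson's r = 0.71, n = 43 genes from the same libraries) and less with log2 length (r = -0.35). Over all genes with known transcripts the values were 0.46 and -0.53. Ccne2, Pola1 and Mcm4, at 35.5%, 41.5% and 42.0% GC, had the lowest GC of the 43 and the 3 lowest differences. With library trends in length and GC removed, 14 of the 43 were higher and 6 lower (46.5% called), against 50.9% of all genes. Ccne2 was among them (0.87, adjusted p = 0.00972). Leaving knockout 2 out gave 14 higher and 12 lower (60.5% called), against 69.6% of all genes, and the median of the 43 became -0.02. All 16 genes called with every library were called in the same direction in both of these alternatives. Both alternatives called more of all genes, and the share of all called genes that they kept was not computed, so nothing is read from this.

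**Figure D5:**
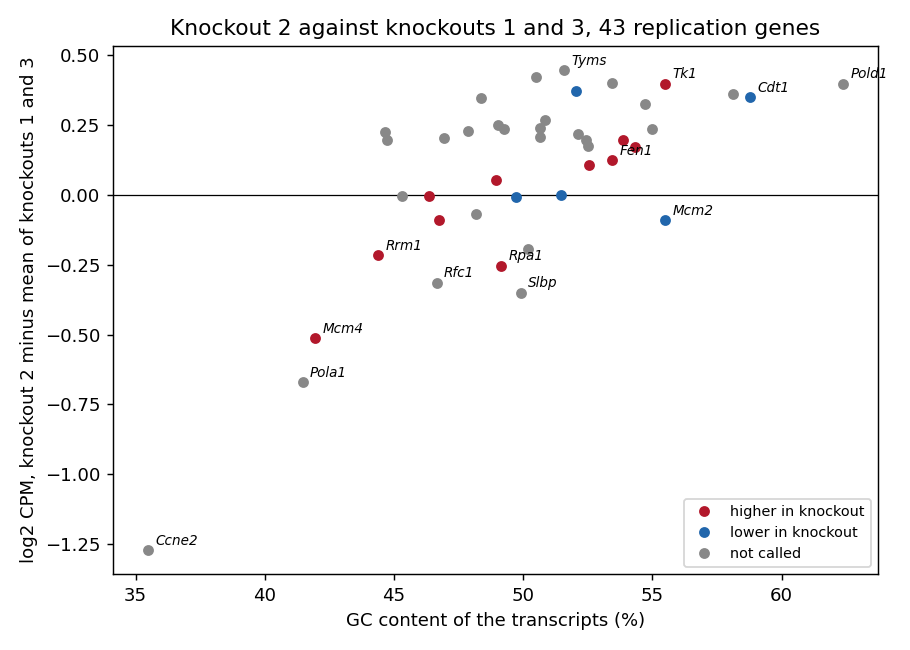
Difference in log2 CPM between knockout 2 and the mean of knockouts 1 and 3 (vertical axis) against the GC content of each gene's transcripts (horizontal axis, percent), for the 43 genes; colours mark the call in knockout against control. Ccne2, Pola1 and Mcm4 lie at the lower left, at -1.27, -0.67 and -0.51.

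Of the 16 calls, 5 held in all 15 alternatives, namely those of Fen1, Orc1, Cdt1, Rrm2 and Tk1. Gins3 also held whichever 1 library was left out and was lost in limma on log2(TPM + 1) alone. The count of calls depended on single libraries, being 8, 7 and 6 without control 1, 2 or 3, where 21.9%, 20.4% and 20.4% of all genes were called. In limma on log2(TPM + 1), 8 of the 43 were higher and 2 lower, with 27.7% of all genes called.

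Other genes of the pathway were read from 43 further parts of the replication machinery. Of these, 8 rose, 10 fell and 25 were not called (41.9% called, against 35.7% of all genes; median 0.02). Without knockout 2, 15 were higher and 14 lower, with 69.6% of all genes called. Pclaf, a PCNA-binding factor, had 119.8, 119.5 and 118 CPM in knockouts, against 66.9, 64.2 and 64.7 CPM in controls (0.87, adjusted p = 0.000163). Dnmt1, the maintenance DNA methyltransferase, rose (0.70, adjusted p = 0.000558), and its partner Uhrf1 rose 1.43-fold. Recql4, a helicase of replication initiation, fell to 51.2, 62.2 and 52.9 CPM in knockouts, against 97.4, 102 and 100.1 CPM in controls (-0.85, adjusted p = 0.000713). Uhrf1 and Recql4 were chosen after their values were seen.

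Fork protection and checkpoint genes gave 2 higher, 7 lower and 13 not called of 22 (median -0.12), where 17.1% of all genes were higher and 18.5% lower. Without knockout 2 the balance was 8 higher and 9 lower, with 34.6% of all genes higher and 35.0% lower. Bard1, the partner of BRCA1, fell 1.45-fold and the checkpoint kinase gene Atr fell 1.45-fold (-0.53, adjusted p = 0.00446). Those that rose were Clspn, which encodes the checkpoint adaptor claspin (0.35), and Cdc25a, a phosphatase that activates Cdk2 (0.28), and the Cdc25a call needed every control and knockouts 1 and 3. Clspn and Cdc25a were chosen after their values were seen. Of 30 other genes of nucleotide synthesis, 1 rose (Ctps2, a CTP synthase, 0.72), 7 fell and 22 were not called (26.7% called, against 35.7% of all genes). Without knockout 2 the counts were 6 higher and 13 lower, with 69.6% of all genes called. Without control 3 they were 1 and 2, with 20.4% of all genes called. Shmt1, a serine hydroxymethyltransferase, fell 1.46-fold and Tk2, the mitochondrial thymidine kinase, fell 1.57-fold, opposite to Tk1. Rrm2b, the alternative small subunit of ribonucleotide reductase and a p53 target, fell 1.68-fold to 16.7, 10.48 and 15.1 CPM in knockouts, against 23.5, 22.9 and 24.5 CPM in controls, opposite to Rrm2.

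Among 29 genes of E2F, RB and CDK control, 11 rose, 5 fell and 13 were not called (55.2% called, against 35.7% of all genes; median 0.25). Without knockout 2 the counts were 19 higher and 8 lower, with 69.6% of all genes called, and without control 2 they were 6 and 3, with 20.4%. Cdk inhibitors went both ways. Cdkn1c (p57) had 8.97, 8.84 and 8.26 CPM in knockouts, against 3.09, 2.49 and 2.73 CPM in controls, and rose 3.13-fold (1.65, adjusted p = 0.000171). Cdkn2c (p18) rose 2.40-fold (1.26, adjusted p = 0.000188), while Cdkn1a (p21) fell 1.71-fold to 35.0, 42.1 and 33.3 CPM in knockouts, against 62.3, 66.2 and 60.5 CPM in controls (-0.78, adjusted p = 0.00176). The D-type cyclins split. Ccnd2 fell (-0.85), Ccnd3 rose (0.50, edgeR adjusted p = 0.027) and Ccnd1 was not called (0.19, 0.0647). Cdk2 rose 1.69-fold, Ccna2 (cyclin A2) rose 1.36-fold and Skp2, the F-box protein that directs degradation of p27, rose as well (0.81). Rb1 had 7.90, 4.84 and 6.86 CPM in knockouts and 12.3, 11.4 and 10.2 CPM in controls (-0.79, adjusted p = 0.0147), a call lost without control 1 or 2. Ccnd1, Ccnd3, Cdkn1a, Cdk2, Ccna2, Skp2, Rb1 and Rrm2b were chosen after their values were seen. Of 28 mitosis genes, 13 rose, among them Incenp (0.74) and Kif20a (0.54), which act in chromosome segregation and cytokinesis, and the other 15 were not called (46.4% higher, against 17.1% of all genes; median 0.31). With 1 library left out, 6 to 21 were higher. The fewest were found without control 2 or 3, where 8.79% and 8.91% of all genes were higher. The most were found without knockout 2, where 34.6% of all genes were higher and 1 mitosis gene was called lower. The replication genes' median of 0.07 was not tested against that of the mitosis genes.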

How the data were processed

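RNA from 6 samples of interferon gamma treated MC38 cells was sequenced, and groups were taken from the sample titles. The authors deposited expected read counts (88.9% whole), FPKM and TPM per gene and library, per the file headers. The authors made the expected counts before deposit, and HISAT2, StringTie, SAMtools and build GRCm38.p6 are named per the submitters' processing notes (program for each: not given in the sources used here). Group averages were not used.

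Expected counts were rounded. Genes were kept by filterByExpr (minimum count 10, minimum total 15, smallest group 3). Knockout was compared with control in edgeR 4.0.16 (R 4.3.3; TMM, robust quasi-likelihood test, two-sided, Benjamini-Hochberg over all genes tested). SE belongs to the log2 fold change, intervals are 95%, and folds come from the fit. Alternatives used DESeq2 1.42.0, limma 3.58.1 on log2(TPM + 1) and log2(FPKM + 1), other scalings and filters, a block, removed libraries, and loess trends in transcript length and GC (GENCODE M21, known for 97.1% of tested genes). The tests were tested on simulated data.

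The genes and lists were chosen with earlier results of these data known. Values of every library are given for Mcm2 to Mcm7 and for up to 4 called genes per role; from other lists up to 3 called genes with the smallest p are named, and exceptions are marked. The values of 1 gene that this rule names are not reported here.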

Additional observations from a re-analysis of the deposited data

How the results depend on the processing

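Results were recomputed under up to 15 alternatives. The 43 replication genes gave 10 calls in limma on log2(TPM + 1), and 6 to 26 calls when 1 library was left out. All genes gave 2406 to 8208 calls when 1 library was left out, with the highest number without knockout 2. With 1 library left out, the other replication machinery gave 12 to 29 calls and the mitosis list 6 to 22, and the mitosis list gave 8 in limma on log2(TPM + 1). The median of the 43 genes ran from -0.0175 (without knockout 2) to 0.122 when 1 library was left out. The difference in the Mcm2 share of summed Mcm2 to Mcm7 TPM kept its direction, at -3.93 to -3.20 percentage points when 1 library was left out and -4.25 in CPM. The cause of these differences was not tested.

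No gene called with all libraries changed direction in any alternative, out of 60 called among 89 genes checked. Uncalled genes that changed sign were, in limma on log2(TPM + 1), Mcm7 (0.00634), Gins4 (0.0179), Prim1 (0.0308), Pcna (0.0186), Rfc1 (0.0236) and Orc3 (0.0320). With length and GC trends removed they were Mcm3 (-0.00530), Mcm7 (0.0453), Gins4 (0.0515), Prim1 (0.0665), Pcna (0.0492) and E2f1 (-0.0191). With 1 library left out, Mcm3 ranged from -0.0175 to 0.0777, Cdc45 from -0.0184 to 0.122, Gins4 from -0.128 to 0.0351, Prim1 from -0.0996 to 0.0323, Rfc1 from -0.0959 to 0.0765, Rpa2 from -0.0534 to 0.0795, Tyms from -0.133 to 0.13 and E2f1 from -0.0484 to 0.145.

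The replicate numbers in the titles are shared between groups. Deviations from the group means correlated at 0.16, 0.26 and 0.04 between same-numbered libraries. Knockouts 1 and 2 correlated best with the control of the same number, and knockout 3 with control 1 (0.19). With 3 libraries per group and knockout 2 apart, these values cannot decide whether the samples were paired. With the replicate block, 16 of the 43 genes and 4337 of all genes were called, against 16 and 4157 without it. Lig1 was lost and Ccne2 gained. With 3 libraries per group the spread between libraries limits precision, and no replication gene had fewer than 162 counts in a library.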
